A study of Homo sapiens with 6 samples.

Results

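The 10 genes described here make, break down or control the polyamines putrescine, spermidine and spermine. They were chosen by symbol (SAT1, SAT2, ODC1, AMD1, SMS, SRM, OAZ1, OAZ2, AZIN1 and SMOX), and all 10 were found among the 29489 genes of the deposited table. Poly(A) RNA was sequenced from the human lymphoma line SU-DHL-4, derived from a diffuse large B-cell tumour, in a group labelled CON and a group labelled KD. The labels name neither the gene nor the agent behind KD, nor whether the cells were a clone or a pool, and the series is concerned with ZHX2, a transcription factor with zinc fingers and homeodomains, and with SLC3A2 and ferroptosis, an iron-dependent death through lipid peroxidation. No drug, time point or further genetic change is given for either group.

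Polyamines are small, positively charged molecules that bind RNA and DNA and are needed for growth, and rapidly dividing lymphoid cells hold them at high levels. ODC1 (ornithine decarboxylase) makes putrescine, and SRM (spermidine synthase) and SMS (spermine synthase) then add aminopropyl groups, which AMD1 (adenosylmethionine decarboxylase) supplies by decarboxylating S-adenosylmethionine. In the reverse direction SAT1 acetylates spermidine and spermine for export or oxidation, and SMOX oxidises spermine directly. The antizymes OAZ1 and OAZ2 bind ODC1, send it to the proteasome and block polyamine uptake, and AZIN1, an inactive relative of ODC1, captures antizyme and so protects ODC1. Synthesis of antizyme protein depends on a polyamine-stimulated ribosomal frameshift, so that an RNA level does not give its protein level. SAT1 has also been described as a promoter of ferroptosis.

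Levels are given as FPKM (fragment counts divided by transcript length and by the total of the library), which allows comparison between genes per unit length. Each group has 3 labelled samples, but the replicate 1 columns hold no separate measurement. For all 10 polyamine genes, the CON replicate 1 value was that of the other CON libraries, averaged and divided by 1.1, and the KD replicate 1 value was made likewise with a divisor of 1.2 (relative tolerance 1e-09). All comparisons therefore rest on 4 libraries, replicates 2 and 3 of each group. The labels do not speak of separate cultures. The p-values below thus cover only how far the libraries of a group lie apart, which may be technical. Sequencing depth is unknown, and 11400 to 11651 genes per library reached 1 FPKM. The share of FPKM in mitochondrially encoded genes was 25.6% to 25.9% in CON and 29.9% to 30.3% in KD. ZHX2 had CON levels of 38.5 and 36.7 FPKM and KD levels of 11.0 and 11.0 FPKM, but its row in the authors' deposited table lists a fold change of -4.62, a value that a ratio of levels cannot take. All 8 B cell markers examined were above 1 FPKM in every library, with a summed level of 809 and 819 FPKM in CON and 627 and 639 FPKM in KD. CD79A, at 373 and 377 FPKM in CON and 200.3 and 206 FPKM in KD, and CD79B were lower in KD, while MS4A1, at 86.4 and 86.4 FPKM in CON and 117 and 124 FPKM in KD, and BCL6 were higher. Of 8 T and NK cell markers 5 had values, summing to 3.38 and 3.63 FPKM in CON and 3.95 and 3.72 FPKM in KD, and CD8A was listed at 0 in 3 of 4 libraries and GNLY in both KD libraries. Of 6 myeloid markers 5 had values, none reaching 1 FPKM, with sums of 0.119 and 0.125 FPKM in CON and 0.671 and 0.647 FPKM in KD, and LYZ was listed at 0 in 3 of 4 libraries and ITGAM in both CON libraries. Of 8 epithelial and fibroblast markers 4 had values, summing to 6.42 and 6.60 FPKM in CON and 7.68 and 7.17 FPKM in KD, and the part of these markers and of the mitochondrial share in the results was not tested.

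Of the 10 genes, 5 rose in KD (SAT1, AZIN1, AMD1, SMS and OAZ1), 2 fell (SRM and ODC1), 2 did not pass the test (SAT2 and OAZ2), and SMOX was too low to be tested. The test was limma on log2(FPKM + 1), fitted to the 11916 genes with at least 1 FPKM in at least 2 libraries, with a Benjamini-Hochberg adjusted p below 0.05, and fold changes on this scale understate those of low genes. The 9 tested polyamine genes reached 1 FPKM in every library, so none entered through a single group. KD and CON differed in a large part of the transcriptome. Of all tested genes 27.6% were higher and 31.1% lower in KD, against 5 and 2 of the 9 polyamine genes. In either direction 58.6% were called, against 7 of 9. The 9 polyamine genes each average 5 FPKM or more. In a fit of the 6983 genes at such a level, 4785 were called, 2292 higher and 2493 lower. With FPKM rescaled without mitochondrial genes the balance turned, to 3720 genes higher and 3163 lower against 3285 and 3701, while the calls of the polyamine genes stayed 5 and 2. The median log2 change was 0.19 over the 9 genes and -0.02 over all tested genes. The groups did not overlap in 8 of the 9, OAZ2 being the exception, against 81.6% of all tested genes. An exact permutation test over the libraries, two-sided, gave p = 0.333 for each of these 8, which is the smallest that 2 against 2 libraries allow, so the calls lean on limma's spread shared across genes. In bulk RNA, a lower level may come from fewer expressing cells or from less RNA per cell, and these cannot be told apart.

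**Figure D1:**
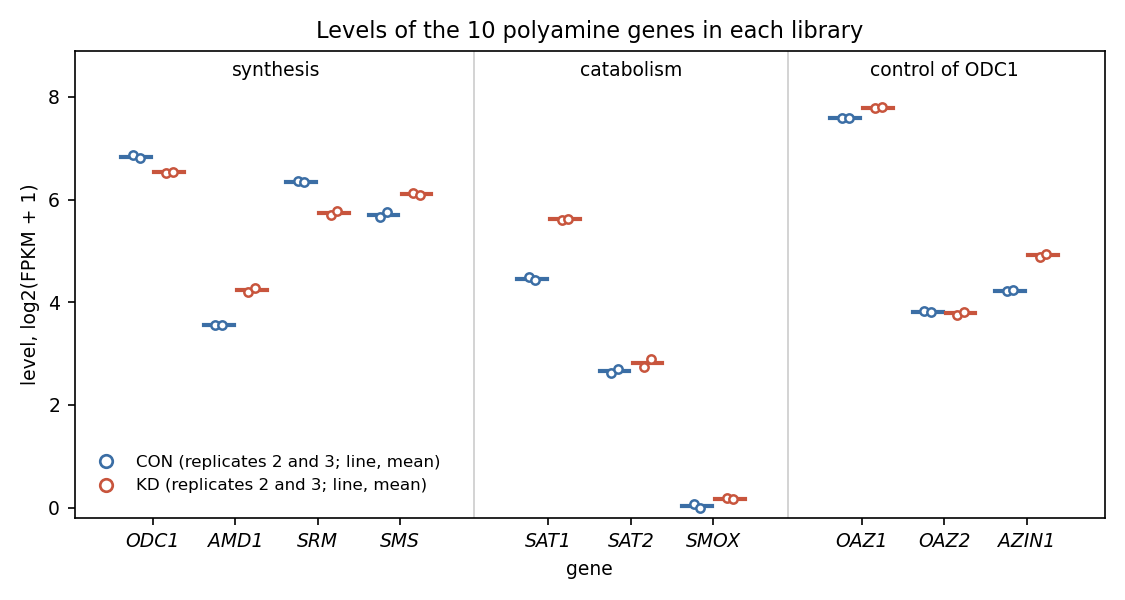
Level of each polyamine gene as log2(FPKM + 1) on the vertical axis, with genes grouped by role along the horizontal axis; open points are single libraries (replicates 2 and 3) and lines are group means of CON (blue) and KD (red). SAT1, AMD1 and AZIN1 lie clearly higher in KD, ODC1 and SRM lower, and SMOX lies near 0 in all 4 libraries.

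The 4 enzymes of synthesis moved in opposite directions. ODC1 (ENSG00000115758, GRCh38 chromosome 2, 10439968 to 10448504, minus strand) measured 116 and 111 FPKM in the CON libraries against 91.1 and 91.5 FPKM in the KD libraries. Both KD libraries lay below both CON libraries, with means of 113 ± 3.55 and 91.3 ± 0.273 FPKM (SD, n = 2), so ODC1 was 1.24-fold lower. On the log2(FPKM + 1) scale ODC1 fell by 0.31 (SE 0.0298, limma adjusted p = 0.00133), and 24.2% of all tested genes had a lower log2 change. SRM, which makes spermidine from putrescine (ENSG00000116649, chromosome 1, 11054584 to 11060024, minus strand), had CON levels of 81.1 and 79.9 FPKM and KD levels of 51.1 and 53.6 FPKM. The KD libraries were again the lower ones, 1.54-fold by the means of 80.5 ± 0.852 and 52.4 ± 1.72 FPKM (SD, n = 2). SRM fell by 0.61 on the log2 scale (SE 0.0328, limma adjusted p = 2.87e-04), and 8.66% of tested genes had a lower log2 change.

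AMD1, which provides the aminopropyl donor for both synthases (ENSG00000123505, chromosome 6, 110874770 to 110895713, plus strand), measured 10.8 and 10.8 FPKM in the CON libraries against 17.3 and 18.3 FPKM in the KD libraries. Both KD libraries were higher, 1.65-fold by the means of 10.8 ± 0.0148 and 17.8 ± 0.695 FPKM (SD, n = 2). The log2 change of AMD1 was 0.68 (SE 0.0443, limma adjusted p = 4.59e-04), and 6.54% of tested genes had a higher log2 change. SMS, which turns spermidine into spermine (ENSG00000102172, chromosome X, 21940573 to 21994835, plus strand), had CON levels of 49.6 and 53.0 FPKM and KD levels of 69.0 and 66.8 FPKM. The KD libraries were 1.32-fold higher by the means of 51.3 ± 2.37 and 67.9 ± 1.58 FPKM (SD, n = 2), with a log2 change of 0.40 (SE 0.0414, limma adjusted p = 0.0016). The order of the 2 synthases therefore differed between the groups: SRM had the higher level in both CON libraries and SMS in both KD libraries.

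MYC, a transcription factor that binds the E-box CACGTG, is known to act on genes of polyamine synthesis, of which ODC1 and SRM fell and AMD1 and SMS rose here. MYC itself measured 51.2 and 52.3 FPKM in the CON libraries against 33.5 and 34.6 FPKM in the KD libraries. MYC fell by 0.59 on the log2 scale (SE 0.0319, limma adjusted p = 2.89e-04). RefSeq windows from 250 bases before to 50 bases after a start site (build GRCh38.p14) were available for 8 of the 10 genes, 12 windows in all, and were searched for CACGTG, which reads the same on both strands. The letters occur in windows of 2 of these genes, ODC1 and SRM. They occur in no window of the others, which are SAT1, SAT2, AMD1, SMS, OAZ1 and OAZ2. No window was available for AZIN1 and SMOX. The number of windows differed between genes, so the genes were not searched alike. Of all 35116 windows of the same length, 7.26% hold the letters, a share of windows and not of genes. One ODC1 window holds them at 2 places (chromosome 2, 10448036 to 10448041 and 10448002 to 10448007), and 0.664% of all windows hold 2 or more. Both places lie outside the exons of ODC1 in GENCODE release 29, downstream of its first exon, and start at positions -29 and 6 relative to an internal RefSeq start site. The SRM match (chromosome 1, 11060212 to 11060217) starts at position -199. The other ODC1 window (chromosome 2, 10448278 to 10448577) holds no match. These matches describe the letters only, and the motif was chosen with earlier results of these data known. Binding was not measured, and the part of MYC in these levels was not tested. The stretch of ODC1 after exon 1, the stretch before SRM and the stretch before SAT1, which holds no such letters, are shown with each E-box in capitals, 5′ to 3′ on the gene's strand.
ODC1, chr2:10448002-10448120, minus strand: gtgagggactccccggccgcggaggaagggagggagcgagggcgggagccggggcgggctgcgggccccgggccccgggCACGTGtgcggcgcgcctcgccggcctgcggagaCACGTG
SRM, chr1:11060025-11060268, minus strand: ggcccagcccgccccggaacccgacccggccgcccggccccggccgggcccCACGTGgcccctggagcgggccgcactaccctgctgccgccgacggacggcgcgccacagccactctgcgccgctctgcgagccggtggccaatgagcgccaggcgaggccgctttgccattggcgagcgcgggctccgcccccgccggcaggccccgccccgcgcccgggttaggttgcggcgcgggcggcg
SAT1, chrX:23782923-23783172, plus strand: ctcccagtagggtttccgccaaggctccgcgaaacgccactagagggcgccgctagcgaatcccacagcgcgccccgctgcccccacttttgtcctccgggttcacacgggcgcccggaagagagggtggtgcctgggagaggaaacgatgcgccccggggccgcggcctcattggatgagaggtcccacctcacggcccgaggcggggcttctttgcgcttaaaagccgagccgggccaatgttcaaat

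The catabolic genes were led by SAT1 (ENSG00000130066, chromosome X, 23783173 to 23786226, plus strand), which measured 21.4 and 20.6 FPKM in the CON libraries against 47.9 and 48.4 FPKM in the KD libraries. No other polyamine gene that was tested had a larger log2 change, 1.16 (SE 0.0339, limma adjusted p = 6.47e-05), and 2.11% of all tested genes had a higher one. By the means, 21.0 ± 0.567 and 48.2 ± 0.390 FPKM (SD, n = 2), the level was 2.29-fold higher in KD, and SAT1 is the only gene of the 10 that the authors' deposited table marks as significant. The q-values in the authors' deposited table are nonetheless at most 1.45e-21 for AMD1, AZIN1, OAZ1, ODC1, SMS and SRM, and no other tested gene of the 10 differed by 2-fold or more. SAT2, its paralogue, which acts poorly on polyamines (ENSG00000141504, chromosome 17, 7626234 to 7627876, minus strand), had CON levels of 5.18 and 5.51 FPKM and KD levels of 5.63 and 6.47 FPKM. The KD libraries lay just above the CON libraries, but the log2 change of 0.15 did not pass the test (95% confidence interval -0.05 to 0.35, limma adjusted p = 0.158). SAT1 made up 80.5% and 78.9% of the summed level of SAT1 and SAT2 in CON and 89.5% and 88.2% in KD.

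SMOX (ENSG00000088826, chromosome 20, 4120980 to 4187747, plus strand) stood at 0.0506 FPKM in CON replicate 2, was listed at 0 in CON replicate 3, and stood at 0.139 and 0.122 FPKM in KD. All 4 values lie far under 1 FPKM, and no fold is given against a group that includes a 0. With no filter on low values, its log2 change of 0.14 (SE 0.0359) did not pass (limma adjusted p = 0.0883). In the authors' deposited table SMOX has a q-value of 0.208. PAOX, the oxidase that acts on acetylated polyamines, stood between 0 and 0.136 FPKM and did not reach the level of testing either.

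Among the regulators of ODC1, OAZ1 was the most abundant of the 10 genes in every library. OAZ1 (ENSG00000104904, chromosome 19, 2269509 to 2273490, plus strand) measured 193 and 192 FPKM in the CON libraries against 218 and 221 FPKM in the KD libraries. The KD libraries were 1.14-fold higher, with a log2 change of 0.19 (SE 0.0202, limma adjusted p = 0.00169), and 28.8% of tested genes had a higher one. OAZ1 was not called when the replicate 1 columns were added (adjusted p = 0.282 by limma). Those columns are fixed multiples of the other libraries with divisors that differ between the groups, so that fit cannot weigh on the call. JSRP1 is a gene on the opposite strand whose span covers an exon of OAZ1. It had CON levels of 4.47 and 7.79 FPKM and KD levels of 11.9 and 13.8 FPKM. Reads of the 2 genes cannot be told apart where counting ignored the strand. The span of AC005258.1, on the same strand, also covers an exon of OAZ1, so strand cannot separate their reads. No level is given for AC005258.1. OAZ2 (ENSG00000180304, chromosome 15, 64687573 to 64703281, minus strand) measured 13.2 and 13.0 FPKM in the CON libraries against 12.5 and 13.0 FPKM in the KD libraries. Its groups overlapped, and the log2 change of -0.03 lay in a 95% confidence interval of -0.14 to 0.08 (limma adjusted p = 0.556).

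AZIN1, the antizyme inhibitor (ENSG00000155096, chromosome 8, 102826357 to 102893864, minus strand), had CON levels of 17.7 and 17.8 FPKM and KD levels of 28.5 and 29.8 FPKM. Both KD libraries were higher, 1.64-fold by the means of 17.7 ± 0.122 and 29.2 ± 0.882 FPKM (SD, n = 2), with a log2 change of 0.69 (SE 0.0374, limma adjusted p = 2.95e-04). Of tested genes, 6.38% had a higher log2 change than AZIN1, next to 6.54% for AMD1. The antisense gene AZIN1-AS1 stood lower in KD, at 0.966 and 0.806 FPKM, than in CON, at 1.58 and 1.37 FPKM. These low levels reached 1 FPKM in the CON libraries only. Its span covers an exon of AZIN1, so reads of the pair cannot be told apart where counting ignored the strand.

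**Figure D2:**
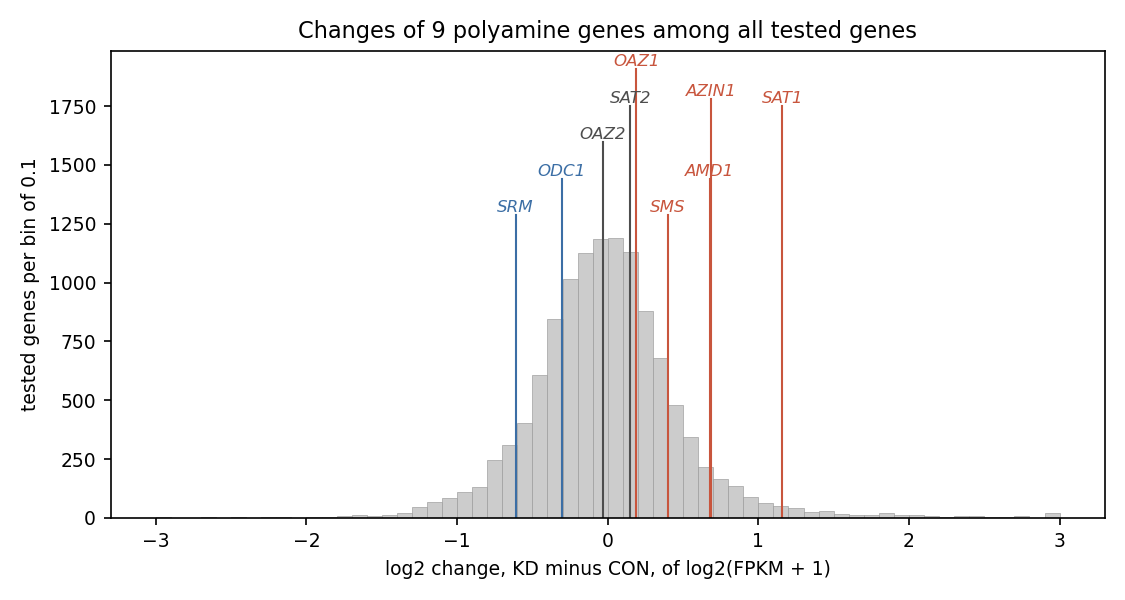
Histogram of the log2 change (KD minus CON, on log2(FPKM + 1)) of all 11916 tested genes, in bins of 0.1, with the 9 tested polyamine genes marked by vertical lines (red, higher in KD; blue, lower; grey, not called); 19 genes beyond 3 in size are drawn in the end bins. SAT1, at 1.16, lies in the right tail, AZIN1 and AMD1 at 0.69 and 0.68, and SRM, at -0.61, on the left flank.

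Within each group the order of levels was free of ties between neighbours. In CON it ran, from high to low, OAZ1, ODC1, SRM, SMS, SAT1, AZIN1, OAZ2, AMD1, SAT2 and SMOX. In KD, SMS stood above SRM and AMD1 above OAZ2. The ranges of neighbouring genes did not overlap in either group, and the closest pair was SRM and SAT1 in KD, 1.09-fold apart by their means. Replicates of the tested polyamine genes differed by a coefficient of variation of 0.0372% (OAZ1) to 4.62% (SMS) in CON and 0.299% (ODC1) to 9.81% (SAT2) in KD. The median was 2.11% and 2.56% over all tested genes at 10 FPKM or more, a level that SAT2 did not reach.

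Ratios of genes within a library do not depend on the library total, and 9 were computed. SMOX to SAT1 could not be given on the log2 scale because of the SMOX value of 0. In each of the other 8 the groups did not overlap, with an exact permutation p of 0.333, the smallest possible here. The ratios join genes already compared above, so this separation adds no separate support. Of single tested genes, 81.6% did not overlap either, and no such share was computed for other pairs. The ratio of SAT1 to ODC1, the acetylating enzyme against the first enzyme of synthesis, was 0.185 and 0.186 in CON and 0.526 and 0.529 in KD. It was thus 2.84-fold higher in KD, which follows from SAT1 rising and ODC1 falling. The ratio of AMD1 to SRM rose from 0.133 and 0.135 in CON to 0.339 and 0.342 in KD, 2.54-fold higher. The ratio of SRM to SMS was 1.63 and 1.51 in CON and 0.741 and 0.802 in KD, 2.04-fold lower in KD and on opposite sides of 1 in the 2 groups.

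The balance of ODC1 against its regulators shifted as well. ODC1 to OAZ1 stood at 0.601 and 0.575 in CON and at 0.418 and 0.413 in KD, 1.41-fold lower in KD. ODC1 to its protector AZIN1 stood at 6.55 and 6.21 in CON and at 3.19 and 3.07 in KD, 2.04-fold lower. The summed level of ODC1 and AZIN1, which both bind antizyme, changed less than their ratio, from 133 and 128 FPKM to 120 and 121 FPKM. The summed antizyme RNA (OAZ1 and OAZ2) was 1.54 and 1.60 times that sum in CON and 1.93 and 1.93 times in KD. SAT1 to SAT2 was 4.13 and 3.74 in CON and 8.50 and 7.48 in KD, and OAZ1 to OAZ2 was 14.6 and 14.8 in CON and 17.5 and 17.0 in KD. AMD1 to SMS moved least apart from that pair, from 0.217 and 0.203 to 0.251 and 0.274.

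**Figure D3:**
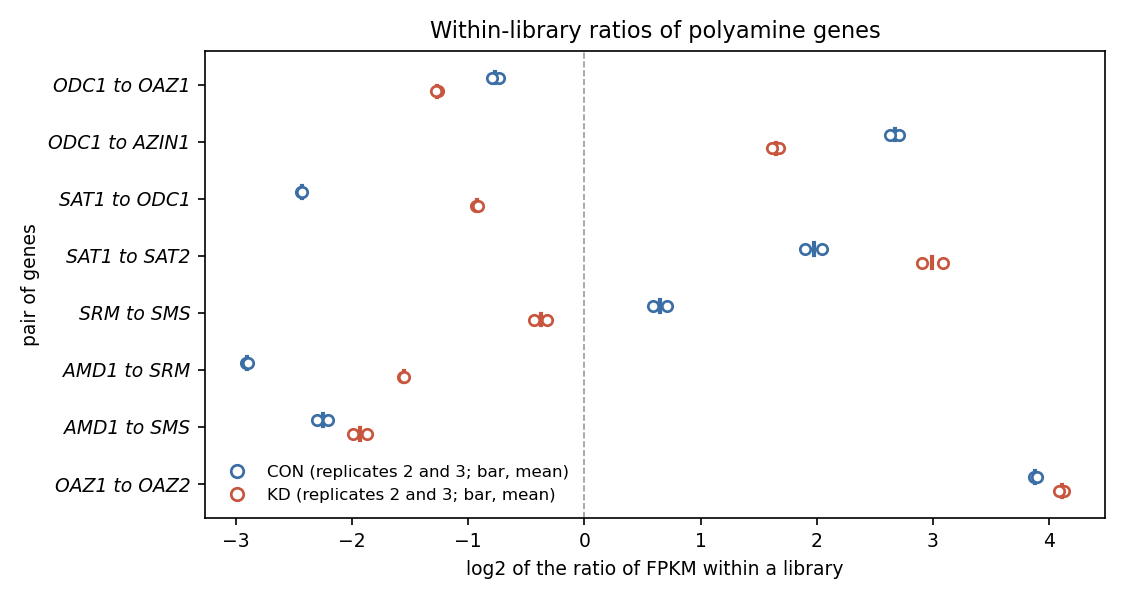
Log2 of the ratio of FPKM of 2 polyamine genes within the same library (horizontal axis) for 8 pairs (vertical axis); open points are single libraries and bars are group means of CON (blue) and KD (red), and the dashed line marks equal levels. The groups are separate in each pair, and SRM to SMS lies to the right of the line in CON and to the left in KD.

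Genes for the supply of the precursors ornithine and arginine changed in both directions. Of 13 listed genes of this supply, 8 were tested, 3 rose and 2 fell, against 27.6% and 31.1% of all tested genes. Their median log2 change was 0.02. OAT, the mitochondrial aminotransferase that interconverts ornithine and glutamate semialdehyde, had CON levels of 26.6 and 26.5 FPKM and KD levels of 46.9 and 47.3 FPKM (log2 change 0.80, limma adjusted p = 1.09e-04). GATM, which transfers the amidino group of arginine and was named after its values were seen, also rose, by 0.57 on the log2 scale (limma adjusted p = 0.00359). The arginine and ornithine importer SLC7A1 fell from 36.3 and 36.4 FPKM to 24.6 and 25.2 FPKM (log2 change -0.53, limma adjusted p = 3.81e-04). PYCR1, which draws on the same glutamate-derived intermediates to make proline, fell from 58.7 and 62.9 FPKM to 35.0 and 32.0 FPKM (log2 change -0.84, limma adjusted p = 5.13e-04).

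S-adenosylmethionine is the substrate of AMD1, and methylthioadenosine, the by-product of both synthases, is recycled to methionine. Of 13 listed genes of this supply and salvage, 11 were tested, 2 rose and 4 fell, against 27.6% and 31.1% of all tested genes. Their median log2 change was -0.11. KYAT1, an aminotransferase of glutamine with keto acids, had CON levels of 7.37 and 7.31 FPKM and KD levels of 3.37 and 3.38 FPKM (log2 change -0.93, limma adjusted p = 3.30e-04). The mitochondrial aspartate aminotransferase GOT2 fell from 142 and 144 FPKM to 106 and 108 FPKM (log2 change -0.42, limma adjusted p = 3.36e-04). Of the salvage enzymes, ADI1 fell by 0.25 and ENOPH1 rose by 0.14 on the log2 scale (limma adjusted p = 0.0233 and 0.0139), with the call lost in 4 and 3 of 16 alternatives. MAT2A, which makes S-adenosylmethionine, and GOT1, both named after their values were seen, had log2 changes of -0.11 and 0.16 that passed (limma adjusted p = 0.0292 and 0.0414). Of 16 alternatives, 10 ended the call of MAT2A and 8 that of GOT1. The calls lost for ENOPH1, MAT2A and GOT1 include the fit with the replicate 1 columns, which hold no separate measurement.

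Spermidine is the donor for hypusine, a modification found on the translation factor eIF5A. Of 5 listed genes, all tested, 1 rose and 2 fell, against 27.6% and 31.1% of all tested genes. Their median log2 change was 0.14. EIF5A measured 139 and 140 FPKM in the CON libraries against 108 and 103 FPKM in the KD libraries (log2 change -0.40, limma adjusted p = 5.56e-04), and its near-identical copy EIF5AL1, whose level is uncertain for that reason, had a log2 change of -0.37 (limma adjusted p = 0.025), called in 11 of 15 alternatives. EIF5A2 rose from 2.50 and 2.59 FPKM to 4.13 and 4.12 FPKM (log2 change 0.53, limma adjusted p = 0.00231). The modifying enzymes DHPS and DOHH did not pass the test (limma adjusted p = 0.0642 and 0.074). With FPKM rescaled without mitochondrial genes, 3 of the 5 genes were called higher and 2 lower, so both enzymes were then called.

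Among 11 listed genes of polyamine transport, 3 reached 1 FPKM in every library. Of these, 2 rose and 1 fell, against 27.6% and 31.1% of all tested genes. SLC3A2 is a transporter heavy chain reported to export acetylated polyamines. It had CON levels of 74.9 and 75.5 FPKM and KD levels of 26.6 and 27.4 FPKM (log2 change -1.45, limma adjusted p = 2.39e-05). The lysosomal polyamine exporter ATP13A2 measured 14.0 and 14.2 FPKM in the CON libraries against 16.3 and 16.3 FPKM in the KD libraries (log2 change 0.20, limma adjusted p = 0.00888), and its relative ATP13A3 rose by 0.24 on the log2 scale (limma adjusted p = 0.00517). With the replicate 1 columns added, neither was called, but those columns hold no separate measurement. ATP13A2 was also not called without CON replicate 2. SLC18B1, a vesicular polyamine transporter, entered the test only through its KD libraries, so it is given by its levels alone, 0.150 and 0.247 FPKM in CON and 1.29 and 1.18 FPKM in KD.

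Of 8 listed regulators of ODC1 and SAT1, 6 were tested, 2 rose and 3 fell, against 27.6% and 31.1% of all tested genes. ALOX15, the lipoxygenase placed downstream of SAT1 in ferroptosis, was at most 0.0212 FPKM in any library. NFE2L2, which encodes NRF2, rose from 5.24 and 5.38 FPKM to 7.10 and 7.18 FPKM (log2 change 0.37, limma adjusted p = 0.00344). HIF1A rose by 0.28 on the log2 scale (limma adjusted p = 0.00175). HIF1A was not called with the replicate 1 columns added, but those columns hold no separate measurement. ATF4, named after its values were seen, had a log2 change of -0.10 (limma adjusted p = 0.0148). This call was lost in 7 of the 16 alternatives, among them the fit with the replicate 1 columns. Over all lists, 10 of 33 tested genes at 1 FPKM or more in every library rose and 12 fell, against the 27.6% and 31.1% of all tested genes given above. The interconversion list (PAOX, SATL1, AZIN2 and OAZ3) had no tested gene.

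**Figure D4:**
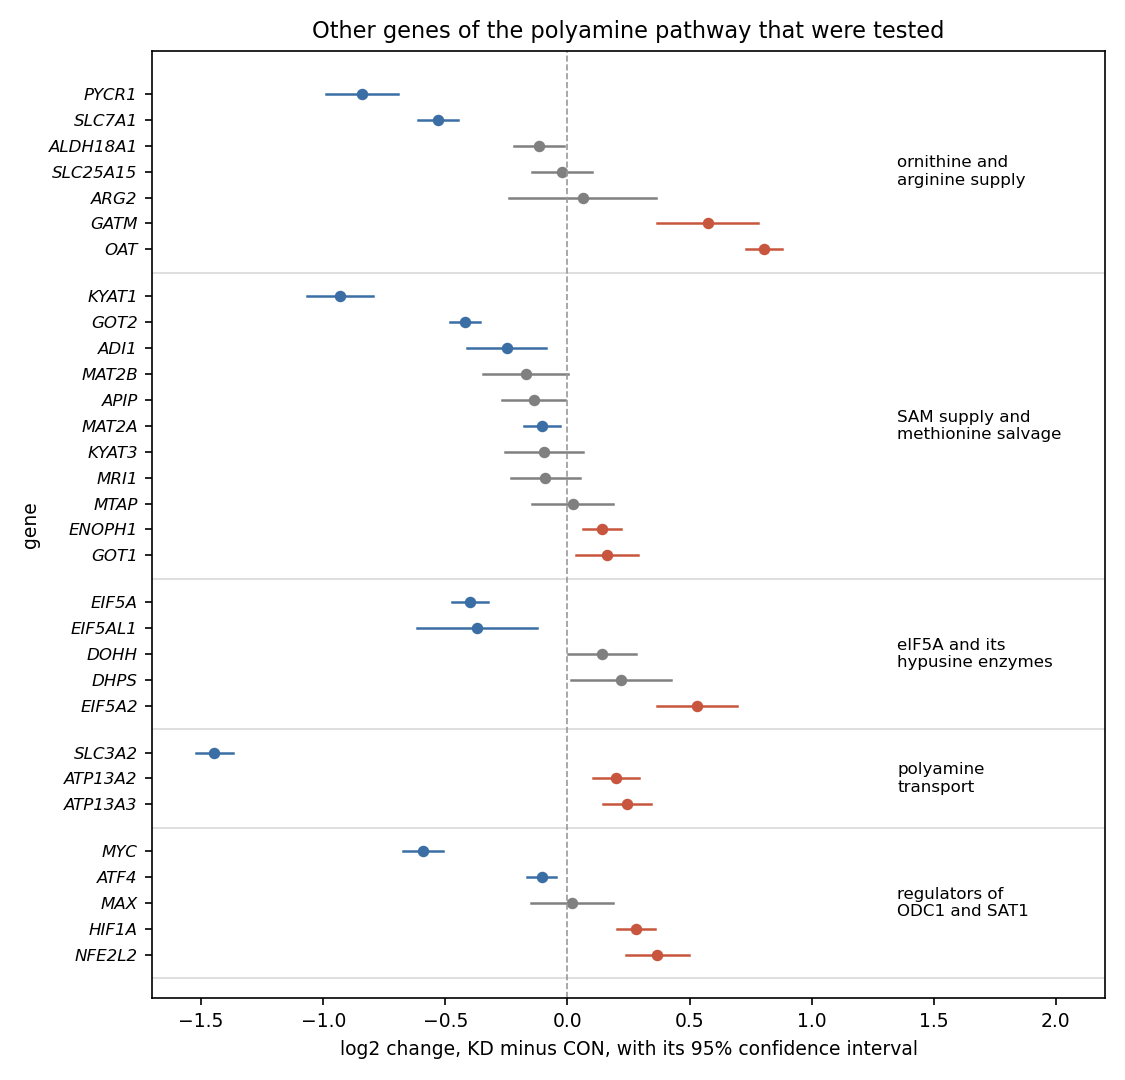
Log2 change (KD minus CON, on log2(FPKM + 1)) of the tested pathway genes outside the 10, at 1 FPKM or more in every library, with 2 of them not drawn, grouped by list; points are limma estimates and bars 95% confidence intervals (red, higher in KD; blue, lower; grey, not called). SLC3A2 lies at -1.45 and OAT at 0.80, and each list with tested genes holds changes in both directions.

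Among tested genes with a symbol, those whose profile over the 4 libraries lay nearest to that of SAT1 were MT-TP, BIRC3 and KDM3A. MT-TP is the mitochondrial tRNA for proline, BIRC3 an apoptosis inhibitor and KDM3A a histone demethylase. Nearness was the Euclidean distance between log2(FPKM + 1) values less their mean, and came to 0.0286, 0.0466 and 0.0468. Their log2 changes were 1.19, 1.17 and 1.15, and with 4 libraries this is a description of size and spread alone.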

How the data were processed

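The authors deposited 1 table for the series, with FPKM per gene and sample. Its other columns are, per the file headers, the fold change on a linear scale, log2 of that fold, the p-value and the q-value. TRIzol extraction, poly(A) selection and dUTP labelling of second-strand cDNA are given by the labels' protocols. GRCh38, HISAT2, StringTie, fastp and edgeR appear in the submitters' processing notes. Neither annotation release nor strand setting is stated there. Low FPKM did not fall on whole-read steps (of 5597 low genes with 1 transcript, at most 36 shared a ratio between 2 libraries), so depth is unknown and no count model was used.

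CON replicate 1 departed from a fixed multiple of replicates 2 and 3 in 1 of 29489 genes, ZHX2, and KD replicate 1 in 0, so replicates 2 and 3 were used (n = 2 per group). Values were fitted as log2(FPKM + 1) with limma 3.58.1 (R 4.3.3), group as the only term, a mean-variance trend and p-values adjusted over all tested genes. The script was tested on simulated data in which far fewer genes changed than were called here. Residual degrees of freedom were 2. Exact permutation tests used scipy 1.17.1. Members, gene lists and the promoter motif were chosen with earlier results of these data known. Named genes were the 10 members, ZHX2, up to 4 called genes with the smallest adjusted p per list, and the 3 profiles nearest to SAT1 among genes with a symbol. Coordinates are from GENCODE release 29 (GRCh38) and sequences from RefSeq (GRCh38.p14). Some genes of the lists enter the counts but are not reported here by name. Alternatives changed the pseudocount, filter, scaling, trend, block or libraries. Reads shared with 4 pseudogene entries (AMD1 and SRM copies, at most 0.148 FPKM) and overlapping genes leave some levels uncertain.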

Additional observations from a re-analysis of the deposited data

How the results depend on the processing

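The calls of the 9 tested polyamine genes were recomputed under 16 alternatives, 15 of them planned, and 7 genes kept their direction and side of the threshold in each. OAZ1 was not called when all 6 columns as deposited were fitted (log2 change 0.15, limma adjusted p = 0.282), which lowers the polyamine genes called to 6. That fit includes the replicate 1 columns, which hold no separate measurement, so it cannot weigh on the call. OAZ2, not called in any alternative, turned from -0.03 to 0.0228 when FPKM were rescaled without mitochondrial genes. SAT1 ranged from 1.12 to 1.25 and SRM from -0.65 to -0.56 on the log2 scale. Leaving out 1 library at a time gave 5011 to 5952 genes called, against 6986, and 7 polyamine genes each time; the lone library of a group is then assumed to vary like the others. Of 6983 genes averaging 5 FPKM or more, 4785 were called, and of all 29489 with no filter, 5459, against 6986 of 11916. Median-ratio scaling gave 3499 genes higher and 3474 lower. With the replicate number as a block, 6582 genes and 7 polyamine genes were called. The labels do not say that a number marks a shared batch, and deviations of same-numbered libraries correlated at 0.00473 over tested genes and at -0.142 over those of at least 10 FPKM; with crossed numbers, an alternative chosen after seeing the data, 6629 genes were called. The difference in log2 ratio of SAT1 to ODC1 stayed within 1.47 and 1.51 over its alternatives. With depth unknown, no limit can be given for SMOX and other genes near 0.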
